A study of Mus musculus with 16 samples.

Results

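Tandem transcription start nodes are short, abutting stretches at the 5′ end of a gene, each of which opens at a start site that some transcripts use and that others read through or begin after. They were taken as the rows of the deposited node table whose type is TS and whose Psi, the share of inclusion, is a number in both groups, and were ordered along each gene by coordinate and strand. This gave 8926 of the 125520 nodes (7.11%), in 3429 of 11448 genes. The libraries came from OT-I Tg C57BL/6J CD8+ T cells, which carry 1 transgenic T cell receptor, electroporated with Cas9 and either a scrambled guide (Control gRNA, 8 libraries) or a guide against Tardbp (Tardbp gRNA, 8 libraries). All 16 were then transferred into C57BL6/J recipients, which were given antigen with the agonist antibodies anti-OX40 and anti-41BB, and CD8+ T cells were sorted from spleen and lymph nodes after 4 days. The cells were not cloned after electroporation, and the share of cells edited was not measured here. By immunoblot of pooled cells from the same model, the paper reported that Tardbp protein was absent with the Tardbp guide. By the study's methods the transferred cells were recovered from individual recipient mice, and the labels give no age.

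Most mammalian promoters do not fire from a single base: RNA polymerase II starts at several positions, often over a broad stretch, and the choice sets the length and content of the 5′ untranslated region. Where a promoter has a sharp initiator, transcription tends to open on a purine that follows a pyrimidine. Genes of the translation machinery use a special kind, the terminal oligopyrimidine (TOP) start, a C followed by a run of C and T that links their translation to mTOR signalling. TDP-43, the protein made from Tardbp, is an RNA-binding protein that favours UG-rich RNA and is known for repressing cryptic exons and steering splicing and 3′ end choice. It was also described as a DNA-binding repressor of transcription.

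The 8926 nodes formed 3510 tandem groups, that is runs of nodes with no gap between them. Of these, 2260 held 2 nodes, 803 held 3, 439 held 4 or more, and 8 nodes stood alone. In 79 genes there was more than 1 tandem group. The 5′ end of 8782 nodes (98.4%) was an annotated start in GENCODE M21. Nodes were short, with a median of 60 bases (quartiles 22 and 141, range 1 to 4576), and 1251 were 10 bases or fewer. Neighbouring starts lay a median of 32 bases apart, and 63.7% of the 5416 gaps were 50 bases or fewer. By annotation, 72.8% of nodes lay in 5′ UTR sequence with no coding base, 23.8% were coding in part and 3.29% lay in noncoding transcripts.

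The starts of 5 groups are shown because they carry the results that follow: the group of the targeted gene, the group with the largest fall and the one with the largest rise in Psi of the upstream start among genes of at least 10 CPM, a group whose starts are 1 base apart, and the start region of a T cell kinase. Each line gives 15 bases on either side of the start from RefSeq promoter sequence (GRCm38.p6), 5′ to 3′ on the transcribed strand, with the last base before the start and the first transcribed base in capitals. Starts outside the RefSeq promoter windows, such as start 3 of Tardbp and start 3 of Pik3cd, are not shown.
Tardbp start 1 of 3 (chr4:148627005-148627034, minus strand): tggtcaggcgaagcCAtctaccgcgttacg
Tardbp start 2 of 3 (chr4:148626982-148627011, minus strand): cgttacgtagggggACtcggaaggccgagt
Fiz1 start 1 of 2 (chr7:5014255-5014284, minus strand): aggggtttcaagaaAGtgtggagactggtt
Fiz1 start 2 of 2 (chr7:5014239-5014268, minus strand): tgtggagactggttAGaaaatggagaggtt
Cbfa2t2 start 1 of 3 (chr2:154436466-154436495, plus strand): cctaacggcggcggCGgcagcggcggcggc
Cbfa2t2 start 2 of 3 (chr2:154436469-154436498, plus strand): aacggcggcggcggCAgcggcggcggcggc
Cbfa2t2 start 3 of 3 (chr2:154436480-154436509, plus strand): cggcagcggcggcgGCggcgctggtgcggg
Hnrnpd start 1 of 4 (chr5:99978924-99978953, minus strand): ccgttcttccgtcgGCcattttaggtggtc
Hnrnpd start 2 of 4 (chr5:99978923-99978952, minus strand): cgttcttccgtcggCCattttaggtggtcc
Hnrnpd start 3 of 4 (chr5:99978921-99978950, minus strand): ttcttccgtcggccATtttaggtggtccgc
Hnrnpd start 4 of 4 (chr5:99978903-99978932, minus strand): taggtggtccgcggCGgcgccattaaagcg
Pik3cd start 1 of 3 (chr4:149698694-149698723, minus strand): gaggcgtagaggatCAgttgtttttcctgt
Pik3cd start 2 of 3 (chr4:149698684-149698713, minus strand): ggatcagttgttttTCctgttatctgtaga

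A second set of starts, chosen after their Psi values were seen, shows the leading start by Psi of 3 translation genes. Each is given from the GENCODE transcript sequence, from the start to the fifteenth base. In capitals are the 5 bases that were searched for a C followed by 4 pyrimidines. All 3 are among the 5 of 19 leading starts of ribosomal protein and translation factor genes that matched this search. Eef1d encodes a subunit of elongation factor 1, and Rps3 and Rps2 encode proteins of the small ribosomal subunit.
Eef1d start 6 of 7 (chr15:75909292-75909306, minus strand): CTCTCctttgcagtc
Rps3 start 2 of 3 (chr7:99483637-99483651, minus strand): CCTTTcctttcagcg
Rps2 start 2 of 2 (chr17:24720110-24720124, plus strand): CTTCTtcttcttcgg

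The libraries held 56016533 to 94801105 estimated gene counts from 29714709 to 48164083 read pairs. The RNA concentration recorded before library preparation, which has no unit in the deposited sheet, ran from 34.9 to 197.1 for the Control gRNA libraries and from 10.1 to 24 for the others, so the groups did not overlap and the guide and the amount of RNA cannot be told apart. Tardbp itself was at 192 ± 13.3 CPM (counts scaled to library size; SD, n = 8) in Control gRNA and 135 ± 11.3 CPM in Tardbp gRNA, or -0.51 on the log2 scale (SE 0.0558; adjusted p = 8.07e-07 by edgeR). The libraries did not overlap, at 172 to 207 CPM against 110 to 147 CPM. The 8 CD8 T cell markers summed to 3760 to 4670 CPM with Control gRNA and to 5670 to 7250 CPM with Tardbp gRNA. The 8 B cell markers summed to 407 to 485 and 572 to 739 CPM and the 4 CD4 T cell markers to 4.39 to 20.7 and 6.15 to 15.6 CPM. The 9 myeloid markers summed to 25.1 to 46.5 and 31.9 to 92.3 CPM and the 6 red cell precursor markers to 0.442 to 17.4 and 9.02 to 181 CPM. Markers under 1 CPM in every library numbered 2 in the CD4 list, 1 each in the B cell, red cell precursor and myeloid lists and none in the CD8 list. The part of these other cells in the start values below was not tested, and in bulk RNA fewer cells of a type and less RNA per cell cannot be told apart.

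Psi of a start node is the authors' estimate of how often transcripts of the gene open there, pooled over the 8 libraries of each group. It has 1 value per group, no replicate error and no depth of its own, and its differences are given as sizes without a test. In 2-node groups the Psi values were complementary: their sum lay within 0.01 of 1 in both groups for 99.4% of them. In the 1242 groups of 3 or more nodes the sum had a median of 1.03 and reached 2.02 in Control gRNA, so in these groups Psi cannot be read as a share of a whole.

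The Psi of the leading node was read in each group of Control gRNA. The leading node had a Psi over 0.5 in 3401 of the 3502 groups of 2 or more nodes (97.1%), over 0.9 in 1338 (38.2%) and over 0.99 in 275 (7.85%). In the 2260 groups of 2 nodes the Psi values sum to about 1. A leading Psi of about 0.5 or more is therefore given there by construction. The downstream starts led more often than the most upstream one. In groups of 2, the downstream node led 1448 times (64.1%) and the upstream node 812 times (35.9%). In groups of 3, the middle node led 477 groups (59.4%), the most downstream 222 (27.6%) and the most upstream 104 (13%).

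Sequence at the starts was read next. A window of 30 bases could be read for 4665 nodes (52.3%), and its transcribed bases matched the GENCODE transcript in 99.9% of the 4577 nodes that had both. A pyrimidine-purine initiator, read as CA, CG, TA or TG on the transcribed strand across the start, was present at 51% of all nodes, 51.1% of leading nodes and 50.9% of the others. TATAA between 40 and 16 bases upstream of the start, on the transcribed strand, was found at 1.59% of 1945 leading nodes and 0.81% of 3209 others, with 1.11% over all. A C followed by 4 pyrimidines, read from the start, opened 1.96% of 8760 nodes, 1.83% of leading nodes and 2.05% of the others. No match says only that these letters are not in the window searched.

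Between the groups, 1821 TS nodes (20.4%) differed in Psi by more than 0.1, in 929 groups of 2 or more nodes and 921 genes, against 4.7% of nodes of all types. Of these, 917 were higher and 904 lower in Tardbp gRNA. In 2-node groups a rise at 1 start is a fall at the other, so there the counts are near even by construction. The median size of the difference was 0.0228 over all TS nodes. Tandem 3′ end nodes, built the same way at the other end of the gene, were past 0.1 in 2676 of 12425 (21.5%), while alternative first exons, which choose between separate promoters, were past it in 79 of 1279 (6.18%) and core exons in 918 of 98533 (0.932%). Retained introns and alternative donor and acceptor sites lay between, at 9.95%, 10% and 8.95%.

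The share of start nodes past 0.1 fell steeply with the level of the gene. It was 45.8% of 212 nodes in genes under 1 CPM, 34.6% of 1297 at 1 to 10 CPM, 24.9% of 3346 at 10 to 50 CPM, 12.8% of 2988 at 50 to 200 CPM and 5.2% of 1076 at 200 CPM or more. Tandem 3′ ends followed the same course, from 32.8% to 6.28%. Core exons fell as well, from 3.47% to 0.11%, and alternative first exons from 13.3% at 1 to 10 CPM to 2.13% at 200 CPM or more. Of the 105 start nodes that differed by more than 0.5, 67 lay in genes under 10 CPM. The same gradient appeared in the Psi sum of groups of 3 or more nodes: where the sum exceeded 1 by at most 0.005, 27 of 542 nodes (4.98%) were past 0.1, and where it exceeded 1 by more than 0.1, 308 of 1182 (26.1%) were, with median gene levels of 258 and 12.5 CPM. By length, 20% of nodes of up to 10 bases, 17.1% of longer ones up to 100, 24.3% of those above that up to 300 and 29% of the longest were past 0.1.

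**Figure D1:**
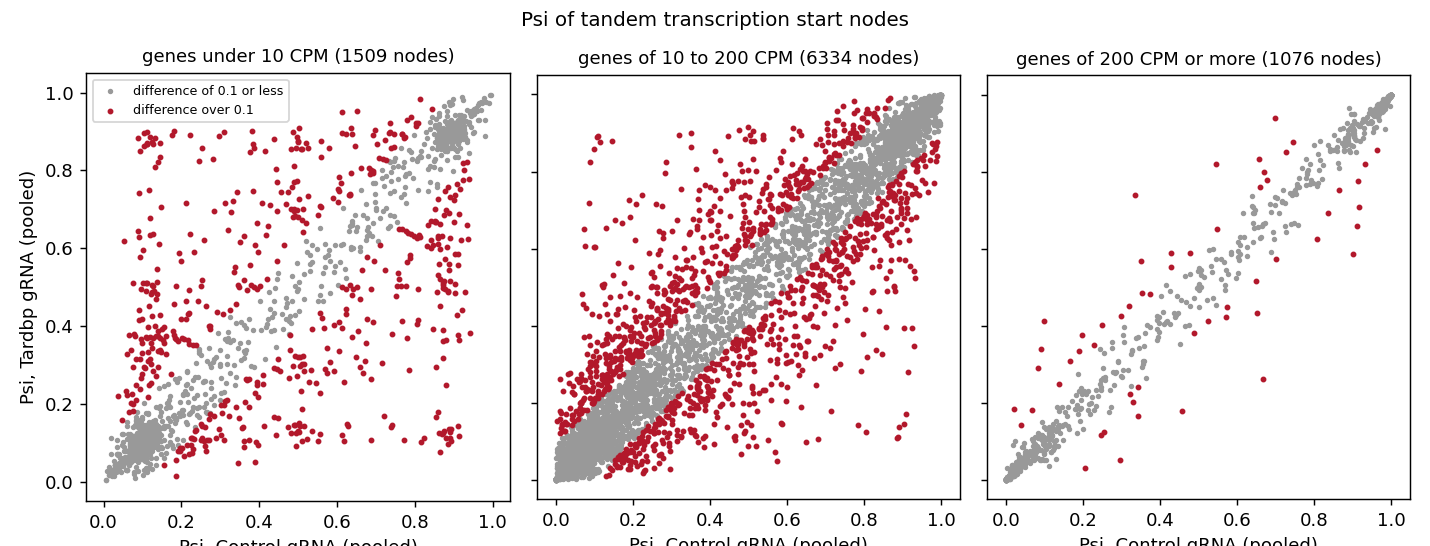
Psi of each tandem start node in Control gRNA (x axis, 0 to 1) against Tardbp gRNA (y axis, 0 to 1), 1 pooled value per group, split by the mean CPM of the gene, with nodes that differ by more than 0.1 in red. The cloud is broad in the 1509 nodes of genes under 10 CPM and narrows to the diagonal in the 1076 nodes of genes at 200 CPM or more.

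**Figure D2:**
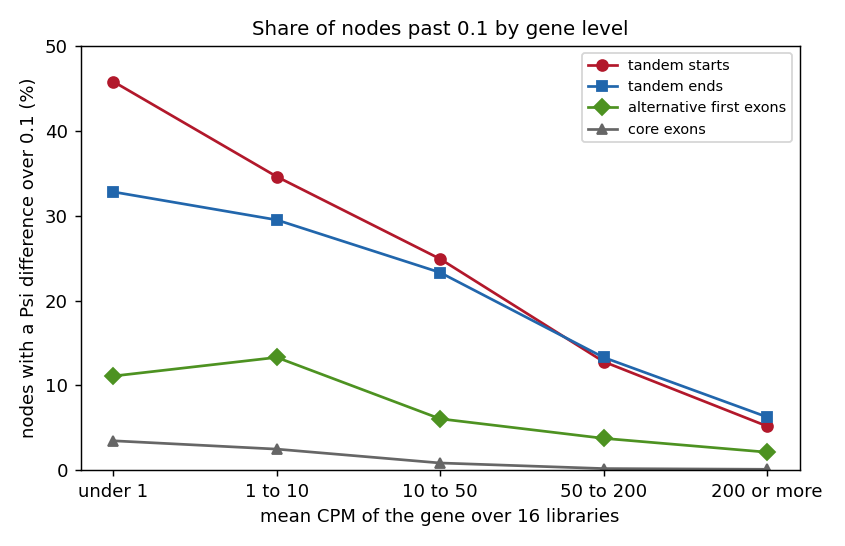
Percentage of nodes whose Psi differs by more than 0.1 (y axis) by mean CPM of the gene over 16 libraries (x axis), for tandem starts, tandem ends, alternative first exons and core exons. Tandem starts fall from 45.8% to 5.2%, tandem ends from 32.8% to 6.28% and core exons from 3.47% to 0.11%. Alternative first exons fall from 13.3% at 1 to 10 CPM to 2.13% at 200 CPM or more, with 11.1% of 9 nodes under 1 CPM.

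The direction along the gene was close to even. Of the 929 groups with a node past 0.1, the most upstream node had the higher Psi in Tardbp gRNA in 486 (52.3%, exact 95% interval 49 to 55.6%, which covers counting error only). The Psi-weighted mean start moved upstream in 478 of the 929 (51.5%). Its shift had a median size of 7.25 bases and passed 10 bases in 379 groups and 100 bases in 30. Over all 3502 groups the upstream node was higher in 1937 (55.3%, exact 95% interval 53.6 to 57%), with a median difference of 0.000752.

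The leading start itself changed in 333 groups (9.51%). These groups had a median leading Psi of 0.582 in Control gRNA, against 0.879 in the groups whose leading start was kept. In genes at 200 CPM or more, 10 of 411 groups (2.43%) changed their leading start. Nodes with TGTGTG or GTGTGT, the sequence TDP-43 favours, on the transcribed strand within the node made up 3.93% of the 1781 nodes past 0.1 that had a transcript sequence and 3.94% of the 6979 others, as of all 8760 nodes (3.94%).

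The largest exchanges in genes of at least 10 CPM ran in both directions. Psi of the upstream start of Cbfa2t2, a co-repressor of the ETO family, was 0.114 in Control gRNA and 0.878 in Tardbp gRNA, while its start 3 went from 0.89 to 0.137. In the second tandem group of Drap1, a subunit of the NC2 repressor of TATA-binding protein, the upstream Psi was 0.0879 and 0.826. The upstream start of Sec16a, a scaffold of endoplasmic reticulum exit sites, was at 0.351 and 0.9. Txndc16, a thioredoxin-domain protein, and Gm45871 were at 0.0875 and 0.719 and at 0.286 and 0.825. In each of these the Tardbp gRNA pool favoured the upstream start.

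The opposite exchange was as large. Psi of the upstream start of Fiz1, a zinc finger protein, was 0.885 in Control gRNA and 0.108 in Tardbp gRNA, mirrored by the start 16 bases downstream at 0.107 and 0.888. The upstream start of the second group of Ldb1, a LIM-domain cofactor that bridges enhancers, was at 0.887 and 0.112. Mprip, which ties myosin phosphatase to actin, was at 0.903 and 0.146. Spen, a transcriptional repressor that binds Xist RNA, was at 0.93 and 0.348, and Tbc1d14, a regulator of membrane traffic in autophagy, at 0.68 and 0.107. All 10 genes lay between 11.2 and 48.8 CPM, where 24.9% of start nodes in genes of 10 to 50 CPM were past 0.1. The transcripts behind the Fiz1 group had as few as 9 estimated counts in a library, those behind the second group of Ldb1 68 and those behind the second group of Drap1 90. By the start share per library, defined below, none of the 10 upstream starts was called, with limma adjusted p between 0.685 and 0.994. For Cbfa2t2 that share was 0.00987 at the median in Control gRNA (highest 0.473) against 0.00511 with Tardbp gRNA (highest 0.357), so the libraries overlapped.

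Tardbp has 3 tandem starts on chromosome 4, at chr4:148626681-148627019 of mm10 and all in 5′ UTR. Psi of start 1, whose node is 23 bases long, was 0.559 in Control gRNA and 0.39 in Tardbp gRNA. Start 2, with a node of 238 bases, went from 0.232 to 0.392, and start 3 from 0.219 to 0.235. By Psi the leading start thus moved from start 1 to a near tie of starts 1 and 2, by differences of -0.168 and 0.161. By mean start share, start 3 led in both groups, at 0.797 in Control gRNA and 0.732 in Tardbp gRNA. The start share of start 1 per library had a median of 0.0858 in Control gRNA (highest 0.156) and 0.116 in Tardbp gRNA (0.0781 to 0.512). The groups overlapped, and the difference was 0.0905 (SE 0.0517, limma adjusted p = 0.633).

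Among 7 lists of genes, the 44 start nodes of T cell receptor signalling genes had 3 past 0.1 (6.82%) and a median size of difference of 0.021, beside 20.4% and 0.0228 over all TS nodes. These genes had a median level of 251 CPM, and at 200 CPM or more 5.2% of all start nodes were past 0.1. Cbl, an E3 ligase that damps receptor signalling, went from 0.153 to 0.0406 at start 1 of 4. Ptpn6, the phosphatase SHP-1, went from 0.203 to 0.0306 at start 1 of 3 and from 0.189 to 0.333 at start 3, at 587 CPM.

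Of the 39 nodes of CD8 T cell transcription factors, 8 (20.5%) were past 0.1, with a median of 0.0136. The median level of these genes was 80.4 CPM, and 12.8% of all start nodes at 50 to 200 CPM were past 0.1. Psi of the upstream start of Eomes, a T-box factor of effector and memory cells, was 0.784 and 0.619. That of Prdm1, which encodes Blimp-1, was 0.346 and 0.638 at a gene level of 10.5 CPM. Tcf3, the E2A factor, has 5 starts, of which start 2 went from 0.298 to 0.504 and start 4 from 0.211 to 0.0349.

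Costimulation, cytokine and receptor genes had 6 of 38 nodes past 0.1 (15.8%, median 0.0165). Their median level was 44 CPM, and 24.9% of all start nodes at 10 to 50 CPM were past 0.1. In Il18r1, a chain of the interleukin-18 receptor, the upstream start of the second tandem group went from 0.559 to 0.208 and the downstream one from 0.44 to 0.793. In Ctla4, the inhibitory receptor, the upstream start went from 0.279 to 0.452. Cell cycle and DNA replication genes had 2 of 38 nodes past 0.1 (5.26%, median 0.0125). Their median level was 284 CPM, beside 5.2% of all start nodes past 0.1 at 200 CPM or more.

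RNA-binding proteins of splicing and 3′ end formation had 12 of 94 nodes past 0.1 (12.8%, median 0.00973), in 6 of 32 groups: Tardbp, Cstf2, Hnrnpd, Hnrnpll, Ptbp3 and Tial1. The genes of this list had a median level of 209 CPM, beside 5.2% of all start nodes past 0.1 at 200 CPM or more. Cstf2, the RNA-binding subunit of the cleavage stimulation factor, went from 0.385 to 0.266 at start 1 of 3 and from 0.226 to 0.406 at start 3. Hnrnpll, a regulator of CD45 splicing, went from 0.373 to 0.252 at the upstream of 2 starts, and Ptbp3, a polypyrimidine tract binding protein, from 0.195 to 0.0495. The transcripts behind the Ptbp3 group had 40 to 322 estimated counts in a library. Tial1, which encodes the stress granule protein TIAR, went from 0.258 to 0.41 at start 4 of 5. In Hnrnpd, which encodes the AU-rich element binding protein AUF1, starts 1 and 2 printed above are 1 base apart, and their Psi went from 0.174 to 0.047 and from 0.826 to 0.952.

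Metabolic and mTOR genes had 4 of 19 nodes past 0.1 (21.1%, median 0.0241), all in 2 highly expressed genes. The genes of this list had a median level of 182 CPM, beside 12.8% of all start nodes past 0.1 at 50 to 200 CPM. Psi of the upstream start of the second group of Ldha, lactate dehydrogenase A, was 0.65 in Control gRNA and 0.433 in Tardbp gRNA, at 3560 CPM. Pik3cd, the delta catalytic subunit of PI3 kinase, kept start 2 of 3 as its leading start at 0.902 and 0.587, while start 3 went from 0.0976 to 0.411, at 320 CPM. No start of these groups was called by start share.

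Ribosomal protein and translation factor genes stood at the other end, with none of 50 nodes past 0.1 and a median size of 0.000207. These genes are also highly expressed, with a median of 577 CPM, and at 200 CPM or more 5.2% of all start nodes were past 0.1. In 18 of their 19 groups 1 start had a Psi over 0.9. The leading start of Eef1d was the sixth of 7, at 0.997 in both groups, with the other 6 between 0.00179 and 0.00268. That of Rps3 was the second of 3, at 0.998 in both, and that of Rps2 the second of 2, at 0.966 and 0.956. Eef1b2, a subunit of elongation factor 1, was the one group without a leading Psi over 0.9, at 0.88 and 0.883. A C followed by 4 pyrimidines opened 5 of the 19 leading starts by Psi (Eef1d, Rps10, Rps18, Rps2 and Rps3, 26.3%) and 2 of the 28 others (7.14%), against 1.96% of all start nodes. The pyrimidine-purine initiator was at 1 of 8 leading starts with a window (12.5%) and 6 of 13 others (46.2%), beside 51% of all nodes. By mean start share in Control gRNA, start 6 of Eef1d was at 0.0468 and start 4 at 0.451.

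**Figure D3:**
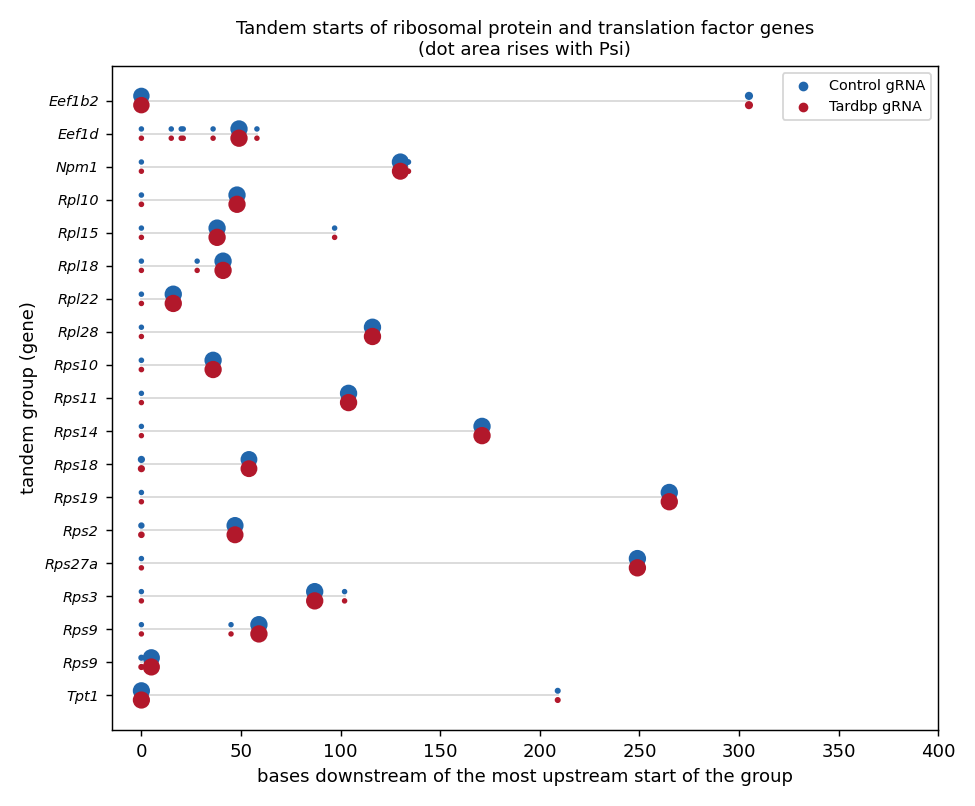
Tandem starts of 18 ribosomal protein and translation factor genes (19 groups, y axis) by distance in bases from the most upstream start (x axis), with dot area rising with Psi in Control gRNA (blue) and Tardbp gRNA (red). In each group 1 start has a Psi of at least 0.88, and its dot has nearly the same size in both groups.

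Genes with the most start nodes differed among themselves. Mocs2, which makes both subunits of molybdopterin synthase from overlapping frames, has 11 starts in 1 group, of which the most downstream had a Psi of 0.997 in both groups and the other 10 at most 0.00288. Tpm1, a tropomyosin gene with alternative promoters, has 16 start nodes in 2 groups. In its upstream group of 10, start 9 led at 0.776 and 0.736, and the 8 starts above it, all between 0.0412 and 0.0444 in Control gRNA, read 0.106 to 0.119 in Tardbp gRNA. The transcripts behind this group had only 30 to 144 estimated counts in a library, and in groups of this size Psi is not a share of a whole. In its downstream group of 6, start 2 led at 0.54 and 0.548. Crem, a cAMP response modulator with several promoters, has 11 start nodes in 3 groups. In the most downstream group, start 2 went from 0.388 to 0.765 at a gene level of 12 CPM. The transcripts behind that group had 56 to 326 estimated counts in a library.

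A value per library was rebuilt from the deposited transcript counts. The start share of a node is the length-scaled count of the transcripts that start in it, divided by that of all transcripts starting in its group. It was tested with limma across nodes of all types, 31466 in all, in which 83 were called (0.264%) when the adjusted p was below 0.05 and the share moved by more than 0.1. Of 8051 start nodes in 3207 groups, 47 (0.584%) in 30 genes were called, 26 higher and 21 lower in Tardbp gRNA. At the adjusted p alone 103 passed. With RNA concentration (log2) in the model, 8 start nodes were called, all 8 among the 47 (in Fam220a, Ifi213, Gin1, Ankrd27 and Emd), and with libraries 4 to 8 only 28 were called, 15 of them among the 47. Tandem ends had 21 of 9547 called (0.22%) and core exons 7 of 10245 (0.0683%). The SD of a start share between libraries had a median of 0.0619 with Control gRNA and 0.0646 with Tardbp gRNA, larger than the median difference between the groups, 0.0256. When 0.2 of the share of a group was moved in simulated counts, 92.5% of 200 such nodes were called, and at 0.4 all were. The simulated counts had the same spread setting for every transcript and no error from dividing shared reads. These rates therefore need not hold for the real shares. Start 1 of Fiz1 differed by 0.334 and was not called (SD 0.431 with Control gRNA, limma adjusted p = 0.685).

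The largest exchange was in Tle1, a Groucho-family co-repressor. The share of start 1 of 5 was 0.0101, 0.0683, 0.103, 0.277, 0.0333, 0.0488, 0.0246 and 0.12 in Control gRNA libraries 1 to 8. In Tardbp gRNA it was 0.358, 1, 0.177, 1, 1, 1, 1 and 0.985. Library 3 of Tardbp gRNA lay inside the Control range and the other 7 lay above it. The difference was 0.729 (SE 0.122, limma adjusted p = 0.012), on as few as 38 estimated counts in a library. With RNA concentration (log2) in the model the difference was 0.472 and the limma adjusted p was 0.902. The gene itself fell, from 6.32 ± 1.98 to 1.53 ± 0.743 CPM (SD, n = 8; log2 fold change -2.05, SE 0.256, edgeR adjusted p = 3.49e-06), and Psi of start 1 was 0.274 and 0.303.

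Ifi213, an interferon-inducible gene listed in the node table as Pydc4, gave one of the tightest values. The share of start 2 of 3 was lowest at 0.336 and highest at 0.462 in Control gRNA, with a mean of 0.39 ± 0.0414 (SD, n = 8), and ran from 0.58 to 0.668 in Tardbp gRNA, with a mean of 0.625 ± 0.0303. The libraries did not overlap (difference 0.235, SE 0.0178, limma adjusted p = 1.21e-05). Without length scaling the difference was 0.152 and stayed called (limma adjusted p = 2.01e-05), and it stayed called with RNA concentration in the model (limma adjusted p = 0.0148). The gene rose from 20 ± 9.49 to 63.5 ± 16.9 CPM (log2 fold change 1.67, edgeR adjusted p = 3.61e-05). By Psi the same start led in both groups, at 0.975 and 0.984.

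Fam220a, which encodes a STAT3-interacting repressor, behaved likewise at start 3 of 4. Its share was 0.332 at the lowest, 0.378 at the median and 0.43 at the highest in Control gRNA, against 0.614, 0.644 and 0.719 in Tardbp gRNA, with no overlap (difference 0.277, SE 0.0162, limma adjusted p = 1.32e-06). Psi of that start was 0.0329 and 0.0236. Gene expression was read from a single gene entry of that symbol, at 5.22 ± 3.56 and 8.5 ± 2.64 CPM, edgeR adjusted p = 0.104. That entry was as low as 2.1 CPM in a Control gRNA library, too low to hold all transcripts of the start group. These had at least 669 estimated counts in every library, so the gene value does not describe them as a whole.

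In Arl5c, an ARF-like GTPase, the share of the upstream start was higher in Tardbp gRNA. It was 0.354 at the median and 0.404 at the highest in Control gRNA and 0.508 at the lowest and 0.555 at the median in Tardbp gRNA (difference 0.221, SE 0.0255, limma adjusted p = 0.00065). The gene rose from 56.4 ± 4.62 to 89.7 ± 5.77 CPM, and Psi of the upstream start was 0.906 and 0.941. The call was lost with RNA concentration in the model (difference 0.196, limma adjusted p = 0.584) and in libraries 4 to 8 only (0.223, limma adjusted p = 0.078).

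In the other 6 genes named by the size of the difference, the start given is the upstream or a middle one. Ahcyl2, Sntb1 and Sntb2 have 2 starts, so there the downstream share rose by the same amount and was called as well. The upstream start share fell in Ahcyl2, a homologue of the IP3 receptor binding protein IRBIT, by 0.259 (limma adjusted p = 0.0168), and in Synj2bp, a mitochondrial outer membrane protein, by 0.237 (adjusted p = 0.0084). It also fell in the syntrophin genes Sntb1, by 0.24 (adjusted p = 0.0159), and Sntb2, by 0.231 (adjusted p = 0.0443). In Spef2, a sperm flagellar gene at 1.84 CPM, start 2 of 4 fell by 0.278 (adjusted p = 0.00661). In Dlg1, a scaffold of polarity and T cell receptor signalling, start 3 of 4 rose by 0.295 (adjusted p = 0.0487). None of these 6 was called with RNA concentration in the model (limma adjusted p 0.569 to 0.84) or in libraries 4 to 8 only (0.145 to 0.22). With counts not scaled by transcript length, the difference was -0.0914 in Sntb1, -0.0388 in Sntb2, -0.197 in Ahcyl2 and 0.276 in Dlg1, none of them called (limma adjusted p 0.061 to 0.145), while Synj2bp fell by 0.137 and Spef2 fell by 0.139 and both stayed called. Libraries of the groups overlapped in Ahcyl2, Sntb2 and Dlg1 and did not in Synj2bp, Sntb1 and Spef2.

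**Figure D4:**
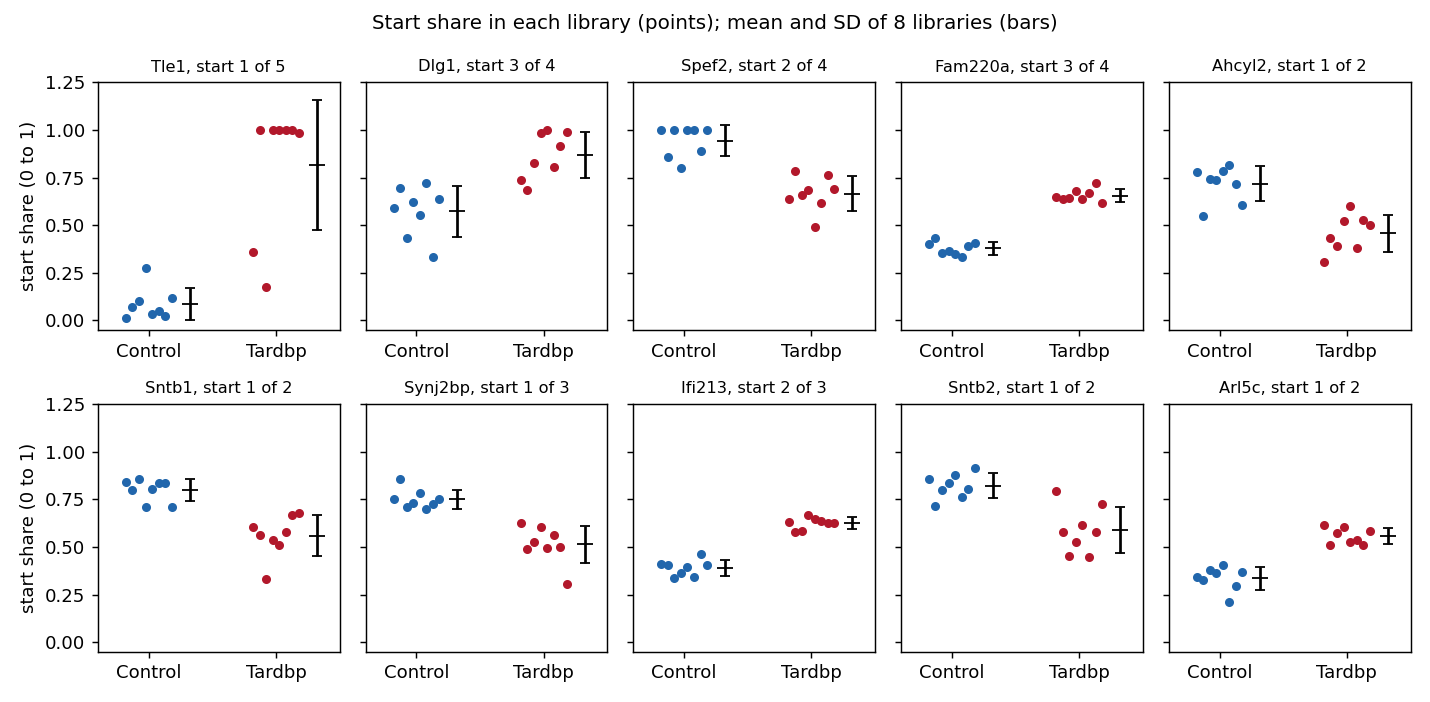
Start share (y axis, 0 to 1) of the called start with the largest difference in each of 10 genes, as points for the 8 Control gRNA (blue) and 8 Tardbp gRNA (red) libraries, with bars for the mean and SD. Tle1 has the largest gap, with 6 Tardbp gRNA libraries near 1, and Fam220a and Ifi213 the narrowest spreads.

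Among the other called genes, 3 were singled out after their values were seen. In Mtor, the kinase of the mTOR complexes, the upstream start share was 0.65 ± 0.0765 in Control gRNA and 0.45 ± 0.0574 in Tardbp gRNA (SD, n = 8; limma adjusted p = 0.0119), and the gene fell from 27.5 to 21.3 CPM. In Bcl2, an inhibitor of apoptosis, it was 0.742 ± 0.0566 and 0.629 ± 0.0383 (limma adjusted p = 0.048). In Rpl10, a protein of the large ribosomal subunit, it was 0.84 and 0.672 (limma adjusted p = 0.0084). For Rpl10 the Psi values put nearly all starts at the downstream site, 0.996 and 0.993. With RNA concentration in the model none of the 3 was called (limma adjusted p 0.564 for Mtor, 1 for Bcl2 and 0.682 for Rpl10), nor in libraries 4 to 8 only (0.0639, 0.233 and 0.133). Without length scaling the differences in Mtor and Bcl2 were -0.0663 and -0.0674, under the size needed for a call. Mtor and Rpl10 held the 4 called nodes among the 7 lists; the other 5 lists had none.

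In each of the 30 called groups, the transcript that gained most share and the one that lost most differed by more than the start. The pair had different introns in all 30, and their 3′ ends lay over 50 bases apart in 28, with a median of 26981 bases, while their starts lay a median of 43 bases apart. The gaining transcript had fewer exons in 24 of the 30 and more in 4, and started downstream in 22. In Mtor, the transcript of 58 exons went from 0.644 to 0.448 of the group and one of 5 exons from 0.35 to 0.55. In Ahcyl2, one of 17 exons went from 0.717 to 0.458 and a retained-intron transcript of 1 exon from 0.209 to 0.407. In Bcl2, the 2-exon transcript went from 0.742 to 0.629 and the 1-exon transcript from 0.258 to 0.371. A called start share is therefore a measure of the whole transcripts and not of the start alone.

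Psi and start share did not follow each other at start nodes. Across the 8051 nodes with both, which share the same libraries, Pearson's r between the differences was -0.00648. Of the 1577 nodes past 0.1 in Psi that had a start share, 750 (47.6%) moved in the same direction by start share. Of the 47 called nodes, 25 moved the same way in Psi, 4 were past 0.1 in Psi and 1 of those moved the same way. The levels did not match either: Spearman's rho between Psi and start share in Control gRNA was -0.0468 for start nodes, against 0.271 for 9547 tandem ends, 0.624 for 172 alternative first exons, 0.648 for 10245 core exons and 0.826 for 723 retained introns. The leading start was the same by both measures in 1177 of 3207 groups (36.7%), and in 145 of 393 (36.9%) in genes at 200 CPM or more. In most groups the 2 measures thus named different leading starts, and the rate that chance would give was not worked out. In Rps3, start 2 had a Psi of 0.998 and a start share of 0.00141 in Control gRNA.

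**Figure D5:**
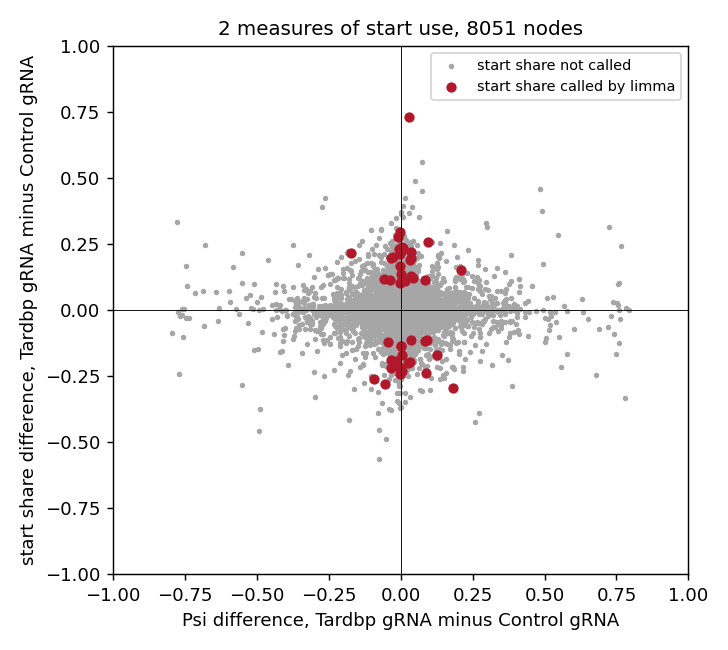
Difference in Psi (x axis) against difference in start share (y axis), both Tardbp gRNA minus Control gRNA, for 8051 start nodes, with the 47 called by limma in red. Nodes with large Psi differences lie along the horizontal line and the called nodes along the vertical one, with r = -0.00648.

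Expression of the genes that carry start nodes was compared last. Of 3408 such genes tested, 2066 (60.6%) were called by edgeR, 946 higher and 1120 lower in Tardbp gRNA. With RNA concentration (log2) in the model 845 were called. Over all genes 46.7% were called, 23.5% higher and 23.3% lower. Start-node genes with a node past 0.1 were called in 506 of 917 (55.2%), 246 higher and 260 lower, with a median log2 fold change of 0.0009 and a median level of 20.9 CPM. Those without one were called in 1560 of 2491 (62.6%), 700 higher and 860 lower, with -0.018 and 53.9 CPM. Of the 30 genes with a called start share, 16 (53.3%) were called in expression, 6 higher and 10 lower.

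By list, RNA-binding proteins of splicing and 3′ end formation with start nodes were lower in 20 and higher in 3 of 29 (median log2 fold change -0.3). Cell cycle and DNA replication genes were lower in 13 and higher in 1 of 16 (median -0.49). Ribosomal protein and translation factor genes were higher in 9 and lower in 3 of 18 (median 0.12), and metabolic and mTOR genes lower in 7 and higher in 1 of 9 (median -0.41). Costimulation, cytokine and receptor genes were higher in 9 and lower in 4 of 15 (median 0.31), T cell receptor signalling genes higher in 5 and lower in 6 of 16 (median -0.074), and CD8 transcription factors higher in 1 and lower in 5 of 11 (median -0.16). The median over all start-node genes was -0.014.

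Large start Psi changes sat on genes that rose, fell or did neither. Ldha fell from 4110 ± 422 to 3010 ± 130 CPM (SD, n = 8; log2 fold change -0.45, edgeR adjusted p = 2.42e-06) and Cstf2 from 159 ± 7.43 to 109 ± 8.23 CPM (-0.54, edgeR adjusted p = 1.06e-07). Sec16a fell (log2 fold change -0.66, edgeR adjusted p = 7.69e-06) and Ldb1 rose (0.62, edgeR adjusted p = 0.000943). Spen, Tbc1d14, Txndc16, Ptbp3 and Tial1 had log2 fold changes between -0.13 and 0.07, with edgeR adjusted p between 0.229 and 0.955.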

How the data were processed

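Reads of 100 bases in pairs from SMART-Seq v4 and Nextera XT libraries, 8 per group by the labels, had been aligned by the authors with HISAT2 2.1.0 to mm10 (submitters' processing notes). StringTie 2.1.0 gave the deposited estimated counts per gene and transcript, unnormalized and whole as given. Read pairs are deposited counts from the sequencing sheet. Psi, a deposited fraction of 0 to 1, was made by the authors with Whippet and pooled by group; which column is which group was taken from the study's text. The deposited entropy score was not used, nor were the authors' columns for the difference of Psi and its probability, which hold their own comparison. Of the columns in the count tables, 10 matched no sample and were not used, and lines naming no gene held 0.0836 to 0.132% of counts.

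Nodes were matched to GENCODE M21. The node's length-scaled start share was tested with limma 3.58.1 (Benjamini-Hochberg over nodes of all types, mean group count of at least 50). Overlapping transcripts share reads, so start shares rest on StringTie's division of them. Genes were tested with edgeR 4.0.16 quasi-likelihood, TMM and filterByExpr (minimum count 10), in R 4.3.3; all tests are two-sided over 16 libraries. On simulated counts with the same spread setting for every gene, the gene test recovered 69.5% of 200 changed genes with 9 false calls. In the simulated transcript counts described above, the start share test made 11 false calls among 8125 nodes.

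Members and gene lists were chosen with earlier results of these data known. Named were Tardbp, the 5 groups with the largest rise and the 5 with the largest fall in Psi of the upstream node in genes of at least 10 CPM, the 10 called genes with the largest start share difference, list genes past 0.1 at 10 CPM or more, and the 3 genes with the most start nodes. Intervals cover counting error only, and reads without molecular identifiers are not independent molecules. Alternatives covered thresholds, gene level, scaling, log odds, blocks, RNA concentration, subsets of libraries and DESeq2 1.42.0.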

Additional observations from a re-analysis of the deposited data

Results flagged for a closer look

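Among 42 sets of 8 library values (start shares and CPM of the 10 genes named by start share, and CPM of Tardbp), 6 held a library far from the rest by Dixon's criterion, which chance gives in about 2.1. In the Control gRNA group, the start 1 share of Tle1 was 0.277 in library 4 against 0.0101 to 0.12 in the others. The upstream start share of Synj2bp was 0.307 in Tardbp gRNA library 8 against 0.49 to 0.623 in the others. Sntb1 was at 19.4 CPM in Tardbp gRNA library 1 against 10.9 to 14 CPM, and Sntb2 at 24 CPM in Control gRNA library 2 against 11.9 to 17.2 CPM. In Tardbp gRNA library 3, Tardbp was at 110 CPM against 130 to 147 CPM and Tle1 at 3.23 CPM against 0.919 to 1.78 CPM; the same library had the lowest Tle1 start 1 share of its group, 0.177. What sets these libraries apart was not tested.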

How the results depend on the processing

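Psi has no value per library and no depth, and start Psi moved most in genes of low count; whether depth is the cause was not tested. Past 0.05 and past 0.2 instead of 0.1, 3041 and 748 nodes differed in Psi; keeping only genes of at least 1 or 10 CPM left 1722 and 1273. The share of groups whose upstream start was higher stayed between 51.5% and 52.3% under the 3 alternatives run. The 47 called start shares became 79 with a difference over 0.05, 27 with counts not scaled by transcript length, 23 as log2 odds, 28 in libraries 4 to 8 only and 8 with log2 RNA concentration as a covariate; the cause was not tested, and RNA concentration does not overlap between the groups. Of the main calls, 22 were shared without length scaling, 21 as log2 odds, 15 in libraries 4 to 8 and 8 with RNA concentration. Libraries 1 to 3 against 4 to 8 as a block gave 43, and count minimums of 20 and 200 gave 47 and 46. Whether library numbers pair the samples was not settled: same-numbered libraries correlated at -0.005 to 0.16, over 0.1 for numbers 1 and 2 only. Libraries of different numbers were not compared. With the replicate block 18 start nodes were called, 14 of them shared with the fit without it, and 2046 start-node genes were called in expression. Among the 10 genes named by start share, 47 of 79 alternative values stayed past the threshold, 32 did not, and none reversed; nodes of Fam220a, Ifi213 and Gin1, 4 in all, were called under every alternative that refitted all 16 libraries. Start-node genes called in expression numbered 2066, between 1860 and 2108 under the alternatives, except for 845 with RNA concentration as a covariate.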
